A study of Mus musculus with 16 samples.

Results

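The voltage-gated sodium and calcium channel genes were taken by name from islet expression tables of 8 mouse strains. A gene was included when its symbol read Scn, a number and the letter a or b, or Cacn followed by a1 with a letter from a to i, by a2d, by b or by g and a number. This rule gave 38 of the 54146 genes in the tables, and no expression value entered it. The 38 genes were 9 sodium channel alpha subunits, 4 sodium channel beta subunits, 9 calcium channel alpha1 subunits, 4 alpha2delta subunits, 4 calcium channel beta subunits and 8 gamma subunits. A filter on low values left 32 of them among 15204 protein-coding genes that were tested. Cacng1, Cacng5, Cacng6, Cacng8, Scn4a and Scn10a did not pass the filter. The brain-type sodium channel gene Scn2a carries the symbol Scn2a1 in the tables and the skeletal muscle gene Cacna1s lies outside the lettered range, so neither was included.

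Whole pancreatic islets of the inbred founder strains of the Diversity Outbred mouse population were profiled by RNA-seq. All mice were 26 weeks old, all had been fed a high-fat diet, and both sexes were labelled in every strain. The strains were 129S1_SvImJ (129, 10 libraries), A_J (AJ, 14), C57BL/6J (B6, 18), NOD_ShiLtJ (NOD, 10), NZO_HlLtJ (NZO, 4), CAST_EiJ (CAST, 14), PWK_PhJ (PWK, 5) and WSB_EiJ (WSB, 16). CAST, PWK and WSB are wild-derived strains and the other 5 are classical inbred strains. NZO had 3 libraries labelled female and 1 labelled male, and PWK had 1 female and 4 male. The 91 libraries belong to 16 samples, each 1 strain and 1 sex. Whether each library came from a separate mouse is not stated in the sources used here, so the p-values measure the spread between libraries.

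Voltage-gated sodium and calcium channels open when a cell depolarizes. In both families a large alpha subunit forms the pore, while smaller subunits set its amount at the membrane and its gating. In an islet beta cell, glucose metabolism closes ATP-sensitive potassium channels, the cell depolarizes, calcium enters through voltage-gated calcium channels and insulin granules fuse with the membrane. Alpha and delta cells, which release glucagon and somatostatin, are electrically active as well and also carry these channels.

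The total of expected counts per library ranged from 16928552 to 35196145. The beta cell markers (Ins1, Ins2 and 5 others) summed to between 165871 and 570441 TPM (transcript abundance scaled to a fixed total per library) over all libraries, and none of the 7 was at 0 in any library. The 6 acinar markers summed to between 1251 and 233863 TPM, and the 5 T cell markers were highest in NOD. Counts of Xist and Y-linked genes went against the sex label in 12 libraries, 6 of 129, 4 of WSB and 2 of NOD. The libraries of 129, NOD, NZO and PWK carry numbers from 66 to 100 and those of AJ, B6, CAST and WSB carry numbers from 1 to 65, so between these sets strain and any batch that follows the numbering cannot be told apart. Within the set from 66 to 100 each strain has its own run (PWK 66 to 75, 129 76 to 85, NZO 86 to 90, NOD 91 to 100), so the same holds between these strains. In bulk islets, fewer cells of a type and less RNA per cell cannot be told apart either.

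Most sodium channel alpha subunits carry an inactivation gate, a short loop inside the cell that plugs the open pore. A coding stretch of 60 bases around it is shown for Scn8a, the most abundant gene of the class in these islets, as an example of this loop. The sequence is the coding strand of a GENCODE M21 transcript of the GRCm38 reference (C57BL/6J), 5′ to 3′, and the capitals mark the 12 bases of the inactivation motif, which start at codon 1487. The search asked for the motif together with the residues just after it. This longer stretch was found in the transcripts read for 8 of the 9 alpha subunit genes. It was not found in that of Scn7a, where the motif alone was not looked for.
Scn8a: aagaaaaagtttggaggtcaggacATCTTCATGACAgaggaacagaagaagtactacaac

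Scn1a (chr2:66270778-66440840), Scn3a (chr2:65457118-65567627) and Scn9a (chr2:66480080-66634962) lie near each other on the minus strand of chromosome 2, whereas Scn8a (chr15:100869858-101045938) lies on the plus strand of chromosome 15. Over the whole coding sequence Scn1a and Scn3a were 81.9% identical, Scn3a and Scn9a 78.98%, and Scn1a and Scn8a 75.1%. Of the 50-base words in the transcripts, 6.49% of those of Scn3a, 4.16% of Scn9a and 4.03% of Scn1a also occur in another gene, against 0.037% of Scn8a. The counts of Scn1a, Scn3a and Scn9a are therefore estimates in which a small share of reads was divided between paralogs.

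Levels of the 38 genes spanned several orders of magnitude, and 18 had a mean above 1 TPM over the 91 libraries. TPM is corrected for transcript length and is used wherever genes are compared with each other. The highest means over the 91 libraries were those of Cacna1a (P/Q-type pore, 35.9 ± 10.7 TPM, SD), Cacnb3 (beta subunit, 32.8 ± 12.1), Cacna1d (L-type pore, 27.4 ± 7.78) and Cacna2d1 (alpha2delta subunit, 25.8 ± 7.87). Cacnb2 had 4.17 to 18.6 TPM, Cacna1c 7.52 ± 2.25 and Cacnb1 7.30 ± 2.26. The sodium channel pore genes were lower, with Scn8a at 5.92 ± 1.74 TPM, Scn9a at 4.18 ± 1.92 and Scn3a at 3.97 ± 1.90. Scn10a, the pore gene of pain-sensing neurons, had no read in 86 of the 91 libraries. Of the other genes that did not pass the filter, Scn4a had no read in 24 libraries, Cacng8 in 20, Cacng5 in 28, Cacng6 in 46 and Cacng1 in 49.

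**Figure D1:**
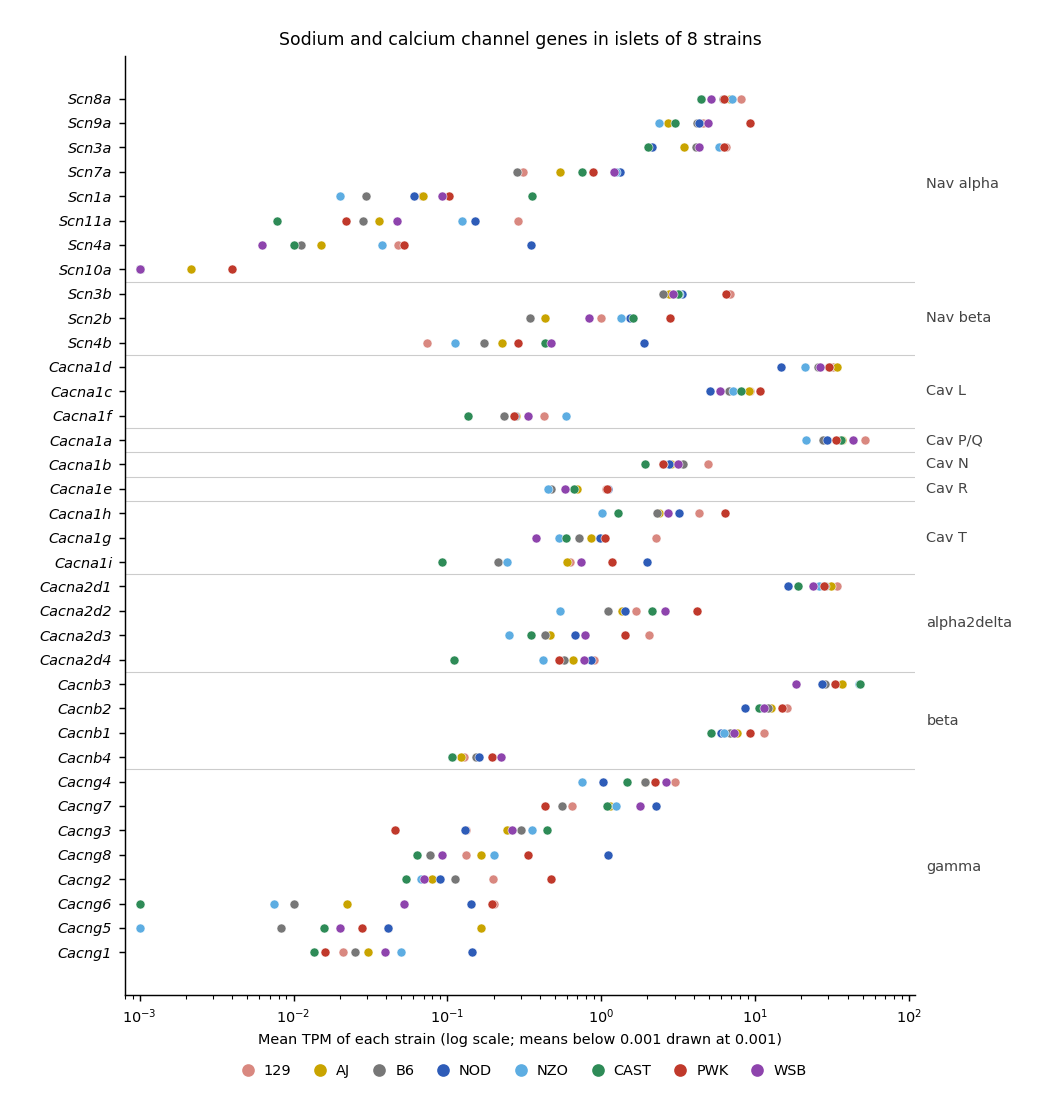
Mean TPM of 36 of the 38 genes in each of 8 strains on a log scale, grouped by subunit class, 1 point per strain, with means below 0.001 TPM drawn at 0.001. Cacna1a, Cacna1d, Cacna2d1 and Cacnb3 lie above 10 TPM in every strain, and the points of low genes such as Scn4b and Cacna1i spread over more than 1 step of the axis.

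One gene dominated most subunit classes. Cacna2d1 held the largest share of alpha2delta TPM in 91 of 91 libraries and Cacnb3 the largest share of beta subunit TPM in 91 of 91. Among calcium pores Cacna1a led in 76 libraries and Cacna1d in 15. By expected counts, which are not corrected for length, Cacna1d had the larger median of these (3853 against 2807). Among sodium pores Scn8a led in 69 libraries, Scn9a in 16 and Scn3a in 6. The 16 libraries led by Scn9a included 5 of 5 PWK libraries and 6 of 10 NOD libraries. Scn3b led the sodium channel beta subunits in 10 libraries, namely 4 of 5 PWK, 4 of 14 CAST, 1 of 10 of 129 and 1 of 4 NZO. Cacng4 led the gamma subunits in 73 libraries and Cacng7 in 18, among them 4 of 4 NZO and 9 of 10 NOD libraries. Scn3a, Scn2b, Cacng3, Cacng4 and Cacng7 are described with values here although they were singled out after their values were seen.

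**Figure D2:**
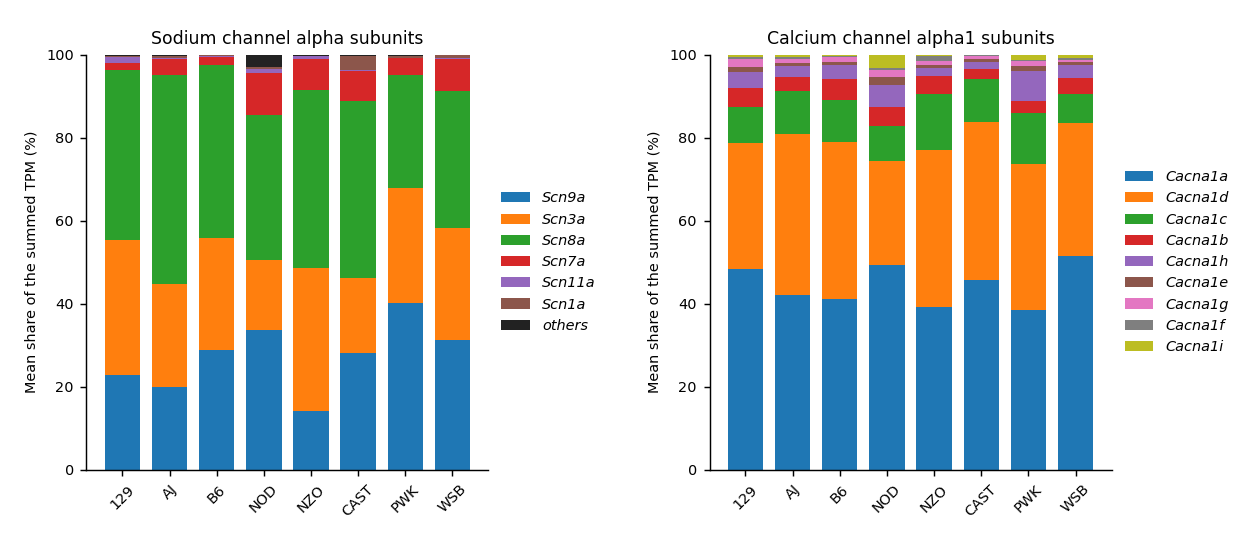
Mean share of the summed TPM of sodium channel alpha subunits (left) and calcium channel alpha1 subunits (right) held by each gene, in percent, 1 bar per strain. Scn9a takes 40.1% of the sodium pore TPM in PWK and 14.1% in NZO, and Cacna1a and Cacna1d together take most of the calcium pore TPM in all 8 strains.

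The first question was which of these genes differ between strains. Differences were tested with edgeR's quasi-likelihood method on the rounded expected counts, with sex as a covariate and Benjamini-Hochberg adjustment over all 15204 genes, and an adjusted p under 0.05 was called. All 32 tested genes showed a strain effect, as did 97.4% of all genes tested. A strain effect with a fitted range of at least 2-fold between the highest and the lowest strain was found for 27 of 32 (84.4%), against 44.4% of all genes. The median fitted log2 range was 2.19 for the channel genes and 0.87 for all genes. The channel genes were also lower in expression, with a median of 141 normalized counts against 440. Normalized counts are expected counts scaled by the upper-quartile library size.

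A gene was called selective when 1 strain stood above, or below, all 7 others in pairwise tests. Of the 32 genes, 14 were higher in 1 strain (43.8%, against 25.8% of all genes) and 11 were lower in 1 strain (34.4%, against 21.7%). Without the 12 libraries that went against their sex label 7 genes were higher in 1 strain, and with delta cell markers as a covariate 8 were. With T and B cell markers as a covariate fewer were lower in 1 strain, as Cacna1c, Cacna1d, Cacna2d1, Cacna2d4 and Scn8a lost that call. The shares of all genes under these settings are not given here. The comparison with all genes therefore holds only for the 91 libraries without these covariates. By strain, 129 was highest for Cacna1b, Cacna1g, Cacnb1 and Scn11a (1.46% of all genes were called highest in 129). PWK was highest for Cacna1h, Cacna2d2, Cacng2 and Scn9a (4.04% of all genes). NOD was highest for Scn4b (11.3%), CAST for Scn1a (2.49%), NZO for Cacna1f (2.26%), WSB for Cacnb4 (1.88%) and B6 for none of the 32 (0.921%), while 1.41% of all genes were called highest in AJ. NOD was lowest for Cacna1c, Cacna1d, Cacna2d1 and Scn8a (5.04%), NZO for Cacna1a, Cacna2d2 and Cacna2d3 (1.78%), CAST for Cacna1i and Cacna2d4 (3.51%) and WSB for Cacnb3 (2.21%). None of the 32 was lowest in 129 (0.927% of all genes), AJ (2.29%), B6 (1.37%) or PWK (4.61%). Highest in 1 strain and lowest in another were 2 of 32 genes, among them Cacna2d2, against 5.24% of all genes. In normalized counts, every library of 1 strain lay above every library of the other strains for 3 genes, namely Scn1a in CAST and Cacng2 and Scn9a in PWK (2.64% of all genes). Every library lay below all others for Cacna2d2 in NZO (2.1% of all genes).

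Among sodium pores, Scn9a was highest in PWK. Scn9a encodes the Nav1.7 pore, which carries a large part of the sodium current of mouse beta cells. The 5 PWK libraries had 8.66, 10.02, 9.68, 4.81 and 13.02 TPM. The 4 NZO libraries had 2.08, 2.08, 1.88 and 3.42 TPM, and the 14 AJ libraries ran from 1.98 through a median of 2.66 to 3.47. WSB stood next below PWK with a lowest value of 2.72, a median of 5.11 and a highest value of 6.66 TPM, so on the TPM scale the PWK library at 4.81 overlapped with it. Libraries of B6 (up to 6.95), NOD (up to 6.54), CAST (up to 6.12) and 129 (up to 5.82) also lay above 4.81 TPM. In normalized counts PWK did not overlap with any strain (1504 to 2278, against at most 1460 in WSB), and the fitted difference from WSB was 0.66 ± 0.14 (SE, log2, edgeR adjusted p = 4.93e-05). The difference from NZO was 1.84 ± 0.20 (adjusted p = 8.83e-13). As a strain, PWK also had the highest median delta cell marker levels, with a summed TPM of Sst, Hhex and Rbp4 from 6529 to 18562 against 1035 to 1912 in NZO, and no delta marker was at 0 in any library. With the delta marker level as a covariate, or that of the 5 alpha cell markers, Scn9a was no longer called highest in PWK, while its strain effect was still called and its range between the highest and the lowest strain was 1.29 (delta) or 1.48 (alpha) in place of 1.84.

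Scn1a, the Nav1.1 pore of fast-firing neurons, was low in all strains and highest in CAST. The 14 CAST libraries ran from 0.21 through a median of 0.37 to 0.62 TPM. In PWK, the next strain, the values were 0.09, 0.17, 0.12, 0.03 and 0.10 TPM, and in NZO the 4 libraries held only 0, 4.1, 1.02 and 3.02 expected counts. WSB reached 0.24 TPM, which overlaps with the lower CAST libraries on this scale, but in normalized counts all CAST libraries (30.5 to 103) lay above all others. The fitted difference between CAST and PWK was 2.45 ± 0.37 (adjusted p = 3.7e-08). The call held under all 25 alternatives in which it could be made. Scn1a made up 3.52% ± 1.14 of the sodium pore TPM in CAST and at most 0.560% in the mean of any other strain. The fit against NZO (4.85 ± 0.52) rests on 0 to 4 counts there and is no bound.

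Scn8a, the Nav1.6 pore, was lowest in NOD. The 10 NOD libraries ran from 2.46 through 4.69 to 6.08 TPM and the 10 libraries of 129, the highest strain, from 6.71 through 7.94 to 9.74, so these did not overlap. CAST had a like TPM (1.77 to 6.88, median 4.61), although in normalized counts it stood with the other strains. From 129 down to CAST no neighbouring pair in the order of fitted levels was called different, whereas NOD was below CAST by 0.60 ± 0.10 (adjusted p = 1.93e-07). Scn3a, the Nav1.3 pore, was highest by the fit in NZO (6.38, 5.78, 3.87 and 7.25 TPM) and lowest in CAST (0.76 to 3.85 TPM). The fitted difference was 1.62 ± 0.17 (adjusted p = 1.31e-13). By mean TPM 129 was the highest strain for Scn3a (6.52). NZO, 129, PWK and WSB could not be separated from their neighbours for Scn3a. Scn11a, the Nav1.9 pore, was highest in 129 (0.16 to 0.42 TPM, median 0.295) and had 0 to 4 expected counts in CAST. NOD (0 to 0.36 TPM) and NZO (0.09, 0.15, 0.17 and 0.09 TPM) overlapped with 129 for Scn11a, which exceeded them by 0.99 ± 0.36 (adjusted p = 0.0131) and 1.27 ± 0.51 (adjusted p = 0.0389). This call was lost in 13 of 24 alternatives, among them those that left out any 1 NZO library. It was also lost with the delta or the alpha markers as a covariate and without the 12 libraries that went against their sex label. In 129 the alpha marker level was the highest of all strains (mean log2 CPM 8.05) and the delta marker level (8.20) was below that of PWK only (8.62). The fold of Scn11a against CAST (4.86 ± 0.45) is no bound because CAST is near 0.

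Among the sodium channel beta subunits, Scn4b had the widest fitted range of the 32 genes. It encodes a beta subunit that takes part in resurgent sodium current. NOD ran from 0.84 through 1.85 to 2.71 TPM, 129 from 0.02 through 0.06 to 0.16, and these did not overlap. CAST held 0.06 to 1.37 TPM, so its upper libraries overlapped with NOD. The fitted difference between NOD and 129 was 5.10 ± 0.63 (adjusted p = 3.94e-11), and that between NOD and CAST was 1.99 ± 0.48 (adjusted p = 0.000181). Acinar markers varied as well, from 20033 to 215483 summed TPM in NOD and from 4847 to 41702 in 129. Scn4b was not called highest in NOD with their level as a covariate, where its range between strains was 3.57. The call was also lost with the delta or alpha marker level and with libraries summed by sample, where the range was 7.24, 4.95 and 4.89. Scn2b was highest in PWK and lowest in B6 (2.84 ± 0.22, adjusted p = 1.91e-20). Scn3b was higher in PWK (6.09, 7.18, 7.32, 3.74 and 8.18 TPM) and 129 (4.82 to 9.85, median 7.02) than in the other 6 strains. PWK and 129 were not called different for Scn3b (0.07, adjusted p = 0.756), and 129 was above CAST, the next strain, by 0.76 (adjusted p = 1.9e-08).

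**Figure D3:**
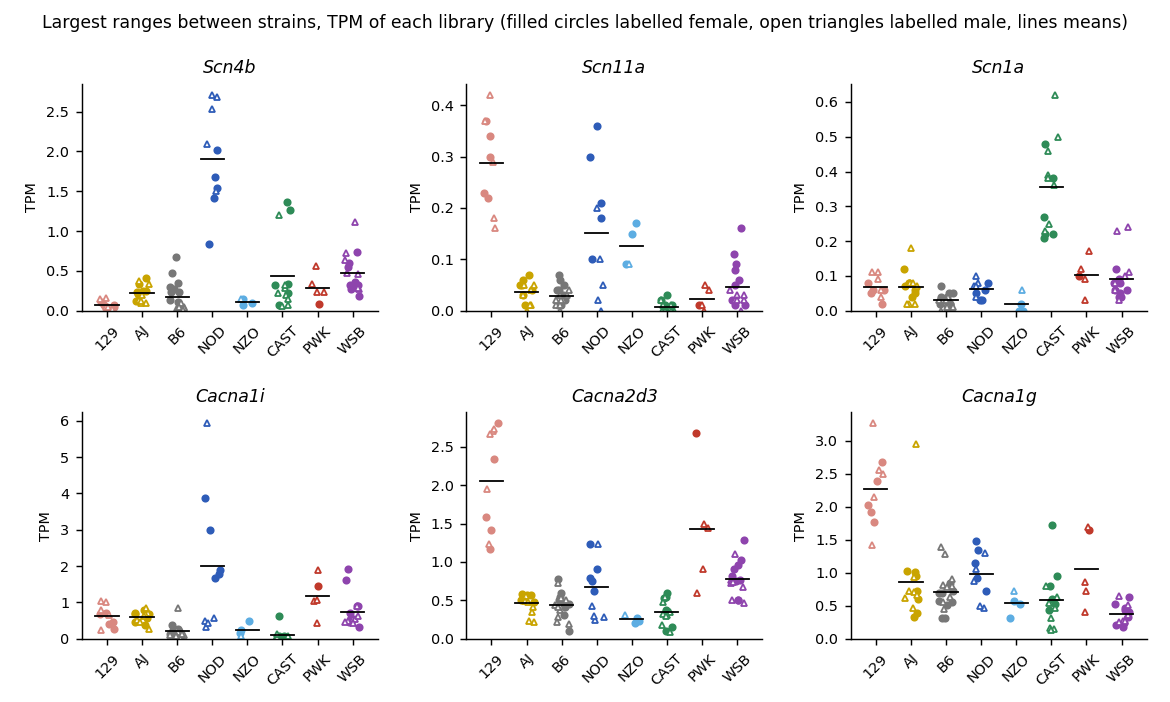
TPM of each library for 6 genes with large differences between strains (Scn4b, Scn11a, Scn1a, Cacna1i, Cacna2d3, Cacna1g), with filled circles for libraries labelled female, open triangles for male and lines at the strain means. The mean is highest in NOD for Scn4b and Cacna1i, in 129 for Scn11a, Cacna2d3 and Cacna1g, and in CAST for Scn1a, although PWK was not called different from NOD for Cacna1i or from 129 for Cacna2d3.

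Among L-type calcium pores, Cacna1d and Cacna1c were both lowest in NOD. Cacna1d (chr14:30039939-30491455, minus strand) encodes Cav1.3 and Cacna1c (chr6:118587240-119196418, minus strand) Cav1.2, the L-type channel that triggers insulin release in mouse beta cells. For Cacna1d the 10 NOD libraries ran from 8.71 through 16.7 to 18.8 TPM and the 10 libraries of 129 had a median of 31.6 and reached 38.6, without overlap. The NZO libraries had 24.1, 23.6, 19.5 and 17.1 TPM, so 1 of them lay inside the NOD range. Libraries of B6 (down to 10.2), CAST (down to 14.4) and PWK (down to 17.3) also reached into it. The fitted differences of Cacna1d in NOD were 1.13 ± 0.10 below CAST, the highest strain (adjusted p = 1.2e-17), and 0.47 ± 0.14 below NZO, the nearest (adjusted p = 0.00283). From CAST through AJ, WSB, 129 and PWK to B6 no neighbours were called different.

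For Cacna1c the NOD libraries ran from 2.98 through 5.33 to 6.76 TPM and the PWK libraries had 9.02, 13.7, 10.7, 7.16 and 13.2. PWK did not overlap with NOD, and the difference was 0.94 ± 0.11 (adjusted p = 6.58e-12). WSB was nearest to NOD with 3.92 to 7.88 TPM, and its range overlapped with that of NOD (0.35 ± 0.08, adjusted p = 0.000178). The ranges of B6 (down to 2.72) and CAST (down to 3.64) overlapped with it as well. Without the 12 libraries that went against their sex label, Cacna1c was not called lowest in NOD.

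Markers of several cell types also differed between NOD and the other strains. In NOD the 5 T cell markers summed to between 2.38 and 452 TPM (median 86.5) and the 4 B cell markers to between 5.69 and 637 (median 98.8), while no other strain exceeded 21.01 and 50.6. Single T cell genes were at 0 in 5 to 21 of the 91 libraries, Cd79b in 7, and Ms4a1 and Cd79a in none. With the T and B cell marker level as a covariate, Cacna1d, Cacna1c, Cacna2d1 and Scn8a were no longer called lowest in NOD, and the fitted range between strains was 0.60 in place of 1.13 for Cacna1d, 0.70 in place of 0.94 for Cacna1c, 0.78 in place of 0.99 for Cacna2d1 and 0.41 in place of 0.89 for Scn8a. With the delta marker level as a covariate these 4 calls held. NOD also had the highest macrophage markers (median 314 summed TPM, against at most 33.5 in another strain) and stellate and fibroblast markers (median 93.4, against at most 59.3), and the lowest beta cell marker level (mean log2 CPM 11.005, against 11.205 to 11.867). The part of these 3 lists was not tested.

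Cacna1f, the retinal L-type gene, was highest in NZO. Its NZO libraries had 0.38, 0.41, 0.37 and 1.21 TPM and its 14 CAST libraries 0.01 to 0.29. The ranges of 129 (0.29 to 0.59), WSB (0.13 to 0.84), B6 (0.06 to 0.58), PWK (0.11 to 0.64), NOD (0.11 to 0.48) and AJ (0.10 to 0.43) overlapped with that of NZO. The difference from 129, the nearest strain, was 0.73 ± 0.30 (adjusted p = 0.0426). The call was lost in 9 of 24 alternatives, among them leaving out the NZO library at 0.41, that at 0.37 or that at 1.21.

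The P/Q-type gene Cacna1a (chr8:84388440-84640246, plus strand) encodes Cav2.1, a pore that opens close to release sites in neurons and endocrine cells. By TPM the highest strain was 129, with 43.4 through 52.9 to 59.8, whereas in the fitted counts WSB and 129 were not called different (0.05, adjusted p = 0.658). NZO was lowest at 23.5, 24.1, 20.9 and 17.97 TPM, and did not overlap with 129. The fitted difference between WSB and NZO was 1.01 ± 0.13 (adjusted p = 4.54e-10), and NZO was below NOD, the nearest strain, by 0.39 ± 0.13 (adjusted p = 0.0108). The NOD libraries spanned 19.5 to 35.9 TPM and overlapped with NZO, and libraries of B6 (down to 13.4) and CAST (down to 15.2) lay below all 4 NZO libraries in TPM. The call for NZO was lost with the delta or the alpha marker level as a covariate and in 129, NOD, NZO and PWK alone, and NZO also had the lowest medians of both lists (1371 TPM for delta and 6773 TPM for alpha). The range of Cacna1a between strains was about as large with these covariates (0.94 with either, in place of 1.01).

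Cacna1b (chr2:24603887-24763152, minus strand), the N-type pore Cav2.2, was highest in 129 at 3.23 through 5.14 to 6.12 TPM and lowest in CAST at 0.92 through 1.62 to 3.82. These ranges overlapped slightly, and the fitted difference was 1.20 ± 0.10 (adjusted p = 1.8e-17). B6 was nearest to 129 (0.31 ± 0.10, adjusted p = 0.00891), and the call for 129 was lost without the 12 libraries that went against their sex label, with libraries summed by sample, and with the delta or the alpha markers as a covariate, where the range was 1.10 and 1.04. Cacna1e, the R-type pore Cav2.3, was not selective. NOD (0.23 through 0.79 to 2.35 TPM), PWK (0.60 to 2.01) and 129 (0.85 to 1.46) held its highest values and overlapped, while NZO had 0.19 to 0.71 TPM. NOD exceeded NZO by 2.06 ± 0.29 (adjusted p = 1.28e-08). With delta markers as a covariate the range of Cacna1e was 1.24 and with alpha markers 2.05, and NOD was called highest with either.

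The T-type pores open at low voltages and set pacing and burst firing. Cacna1h (chr17:25374285-25433783, minus strand), Cav3.2, was highest in PWK at 5.79, 11.03, 4.38, 3.93 and 6.75 TPM. NZO held 1.09, 1.01, 0.99 and 0.94 TPM, well below, while 129 ran from 2.74 through 4.21 to 6.43 and overlapped with PWK. The fitted differences of PWK were 2.30 ± 0.20 from NZO (adjusted p = 1.22e-16) and 0.60 ± 0.15 from 129 (adjusted p = 0.000685). The call for Cacna1h held under all 24 alternatives in which it could be made, the delta and alpha marker covariates included, although with the delta covariate the range between strains was 1.39 in place of 2.30.

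Cacna1g, Cav3.1, was highest in 129 at 1.42 through 2.27 to 3.27 TPM. Every other strain had a median below 1 TPM, and libraries of AJ (up to 2.95), CAST (1.72), PWK (1.69) and NOD (1.48) reached into the range of 129. The difference from NOD, next in the fitted order, was 0.80 ± 0.21 (adjusted p = 0.000672), and it was not called with the T and B cell, the delta or the alpha markers as a covariate, nor without the 12 libraries that went against their sex label. With those 3 covariates the range of Cacna1g between strains was 1.85, 1.65 and 1.61, against 1.82 without them. Cacna1i (chr15:80287238-80398279, plus strand), Cav3.3, was lowest in CAST. The CAST libraries ran from 0 through 0.05 to 0.63 TPM, with 1 to 23 expected counts, and the NOD libraries from 0.33 through 1.73 to 5.93. The fitted differences were 4.63 ± 0.24 between NOD and CAST (adjusted p = 1.68e-30) and 1.30 ± 0.22 between B6, the next lowest, and CAST (adjusted p = 5.48e-07). B6 (0.05 to 0.85 TPM) overlapped with CAST, and NOD was not called different from PWK (0.49, adjusted p = 0.131). The call for CAST held under all 25 alternatives in which it could be made, although the range of Cacna1i was 3.83 with T and B cell markers and 3.69 with delta markers as a covariate, and NOD was called highest with delta or alpha markers.

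**Figure D4:**
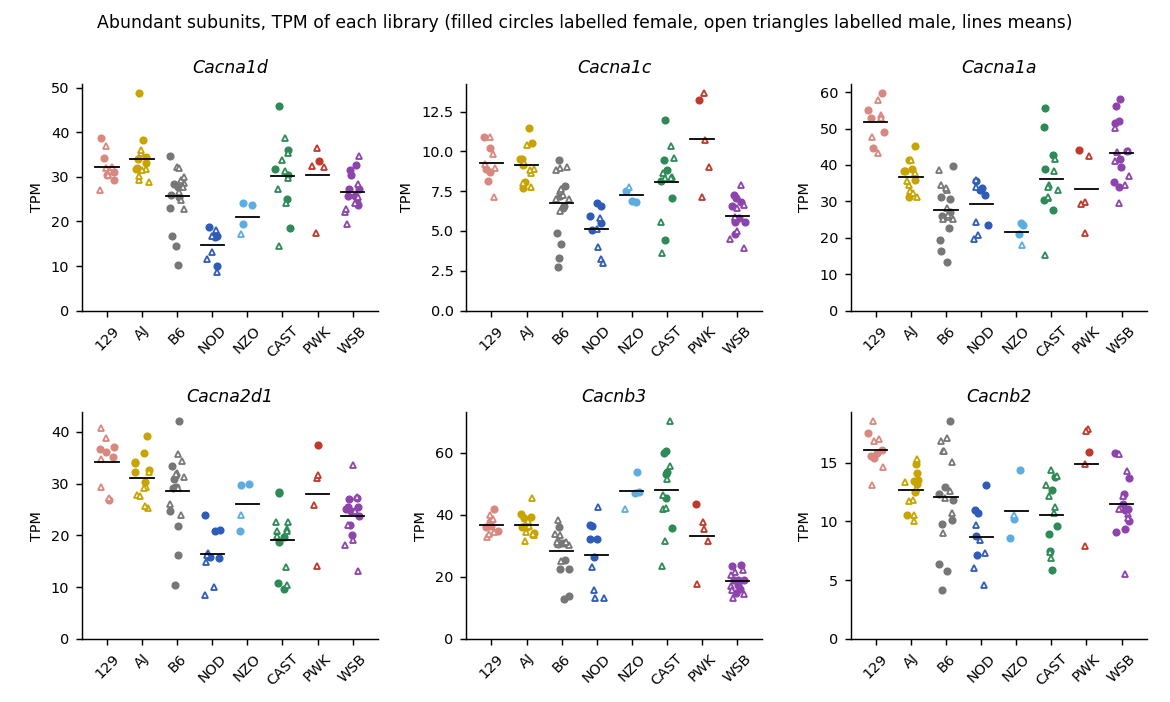
TPM of each library for 6 abundant subunits (Cacna1d, Cacna1c, Cacna1a, Cacna2d1, Cacnb3, Cacnb2), with filled circles for libraries labelled female, open triangles for male and lines at the strain means. NOD is lowest for Cacna1d, Cacna1c and Cacna2d1, NZO for Cacna1a and WSB for Cacnb3.

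The alpha2delta subunits, which carry the channel to the membrane, included the gene with the smallest p-value for a strain effect among the 32, though not the widest range. Cacna2d2 (chr9:107399612-107529343, plus strand) had 3.75, 5.03, 5.09, 2.05 and 5.18 TPM in PWK and 0.49, 0.57, 0.38 and 0.73 TPM in NZO. WSB (1.77 through 2.54 to 3.96) and CAST (1.44 through 2.16 to 3.24) lay between PWK and the other strains. PWK exceeded NZO by 3.21 ± 0.18 (adjusted p = 1.51e-27) and WSB by 0.50 ± 0.12 (adjusted p = 0.000211). NZO was below AJ, the nearest strain, by 1.52 ± 0.15 (adjusted p = 7.01e-14), and AJ, B6, 129 and NOD formed a run in which no neighbours were called different. The low call for NZO held under all 24 alternatives in which it could be made, and the high call for PWK was lost with the delta marker covariate, with a range of 2.75 in place of 3.21.

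Cacna2d1 (chr5:15934691-16374511, plus strand), the dominant alpha2delta gene, was lowest in NOD at 8.43 through 15.98 to 23.9 TPM. The 10 libraries of 129 had 26.8 through 35.6 to 40.7 TPM and did not overlap with NOD, whereas CAST had 9.68 through 20.3 to 28.4 and did. The differences of NOD were 0.99 ± 0.09 below 129 (adjusted p = 4.05e-16) and 0.47 ± 0.09 below CAST (adjusted p = 1.12e-06). Cacna2d3 was highest in 129 (1.17 through 2.15 to 2.81 TPM) and lowest in NZO (0.23, 0.20, 0.27 and 0.31 TPM, with 6 to 17 expected counts). The fitted difference was 3.68 ± 0.34 (adjusted p = 1.77e-15), and 129 was not called different from PWK (0.45, adjusted p = 0.143). The low call for NZO was lost by limma-voom and with alpha markers as a covariate, and the range of Cacna2d3 fell to 2.54 with delta or alpha markers. Cacna2d4 was lowest in CAST at 0 through 0.07 to 0.37 TPM and highest by the fit in NOD at 0.23 through 0.85 to 1.84 (2.79 ± 0.27, adjusted p = 1.18e-15). PWK was next to CAST (0.94 ± 0.36, adjusted p = 0.0272), and without the PWK library at 1.14 TPM, as with the T and B cell, delta or alpha markers as a covariate or with libraries summed by sample, CAST was no longer called lowest. The range of Cacna2d4 with those 3 covariates was 2.24, 2.19 and 2.97.

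Calcium channel beta subunits bind the pore inside the cell. Cacnb3 (chr15:98630840-98644529, plus strand), the main one, was lowest in WSB at 13.3 through 18.8 to 23.9 TPM and highest in CAST at 23.5 through 48.97 to 70.2, so that these met only at 1 end. WSB exceeded none of the AJ (31.5 to 45.3), 129 (32.7 to 42.02) or NZO libraries (47.4, 47.1, 53.7 and 42.1), while libraries of NOD went down to 13.02 and of B6 to 12.95 TPM. CAST exceeded WSB by 1.43 ± 0.07 (adjusted p = 3.74e-33), and NOD, the nearest strain, exceeded WSB by 0.32 ± 0.07 (adjusted p = 0.00012). The call for WSB held under all 25 alternatives in which it could be made. CAST and NZO were not called different (0.21, adjusted p = 0.0923). Cacnb1 was highest in 129 (8.85 through 11.99 to 12.6 TPM), next to PWK (5.4, 9.15, 9.61, 11.04 and 11.4), with a difference of 0.28 ± 0.10 (adjusted p = 0.0131) that was lost without the 12 libraries that went against their sex label. Cacnb2 had the narrowest range of the 32 genes, 0.71 ± 0.10 between 129 and NOD (adjusted p = 9.41e-09). Cacnb4 was low everywhere and highest by the fit in WSB (0.06 through 0.155 to 0.62 TPM), 0.47 ± 0.16 above B6 (adjusted p = 0.0115), a call lost in 3 of 25 alternatives. Of the 50-base words of Cacnb4, 15.01% also occur in another gene, nearly all of them in A430018G15Rik in the reverse orientation, and the sources used here do not say whether counting used the strand. The same limit touches 5.02% of the words of Cacng2, shared with A730060N03Rik, and 4.18% of those of Cacna1d, shared with Chdh, both in the reverse orientation.

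Of the gamma subunits, Cacng2, which encodes stargazin, a partner of AMPA receptors, was highest in PWK at 0.40, 0.65, 0.42, 0.25 and 0.64 TPM. The 10 libraries of 129, the next strain, had 0.07 through 0.195 to 0.36 TPM. In normalized counts the PWK libraries (46.3 to 66.7) lay above all others, and the difference from 129 was 1.43 ± 0.28 (adjusted p = 2.01e-05). The call held under all 24 alternatives in which it could be made. Cacng4 was lowest in NZO and NOD, which were not called different (0.57, adjusted p = 0.0518), and CAST exceeded NOD by 0.72 (adjusted p = 9.7e-05). Cacng7 and Cacng3 had ranges of 2.33 ± 0.30 (NOD above PWK) and 3.17 ± 0.52 (CAST above PWK). The PWK libraries held 2, 0, 8, 2 and 0 expected counts of Cacng3, so its fold is no bound. The range of Cacng3 was 2.04 with delta markers as a covariate, and its strain effect was not called with libraries summed by sample (adjusted p = 0.0825).

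The series sets wild-derived against classical inbred strains. In the contrast of the mean of CAST, PWK and WSB with the mean of the other 5, 14 of the 32 genes were higher in the wild-derived strains (43.8%, against 24.9% of all genes) and 6 were lower (18.8%, against 31.3%). The largest differences upward were those of Scn1a (1.92 ± 0.18, adjusted p = 6.26e-16), Cacna2d2 (1.48 ± 0.06, adjusted p = 1.21e-38), Scn2b (1.13 ± 0.11, adjusted p = 1.7e-14) and Scn4b (1.03 ± 0.31, adjusted p = 0.00312). For Cacna2d2 the 3 wild-derived strains were also the 3 highest in the fitted order, with mean TPM of 2.13 to 4.22 against 0.543 to 1.68 in the classical strains. For Scn1a, CAST had a mean of 0.355 TPM, whereas PWK and WSB had 0.102 and 0.0919 and the classical AJ and 129 had 0.0693 and 0.0680. Scn4b was highest in NOD, a classical strain, and its contrast was not called by limma-voom (0.71), with libraries summed by sample (0.80) or with acinar markers as a covariate (0.06).

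The abundant pores Cacna1a (0.33 ± 0.05, adjusted p = 1.28e-07), Cacna1d (0.31 ± 0.06, adjusted p = 1.78e-06) and Cacna1c (0.20 ± 0.05, adjusted p = 0.000289) were higher by small amounts, as was Scn9a (0.64 ± 0.07, adjusted p = 1.54e-13). Lower in wild-derived strains were, among others, Scn11a (-1.92 ± 0.28, adjusted p = 6.32e-09), Cacna2d4 (-1.04 ± 0.17), Cacna1f (-0.89 ± 0.14), Cacna1g (-0.50 ± 0.12) and Cacna1b (-0.37 ± 0.06). Of the 20 calls, all but that of Scn4b held under the 22 alternatives in which they could be made. Of the 5 alpha and 3 delta markers, 4 and 2 were also higher in wild-derived strains, as were 6 of 6 acinar, 3 of 3 neuron and 3 of 5 Schwann cell markers. Of the 7 beta cell markers 3 were higher, Mafa by 0.40, Slc2a2 by 0.35 and Nkx6-1 by 0.21 (log2), and 1 was lower. Lower in wild-derived strains were 3 of 3 tested T cell, 2 of 4 B cell, 4 of 4 macrophage and 3 of 4 stellate and fibroblast markers. With the acinar, delta or alpha marker level as a covariate the calls other than that of Scn4b held, and the difference was 1.47, 1.44 and 1.42 for Cacna2d2 and 1.94, 1.94 and 1.87 for Scn1a. With T and B cell markers as a covariate all 20 calls held. The part of the beta cell, neuron, Schwann cell, macrophage and stellate or fibroblast markers was not tested.

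Libraries labelled female and male were compared with strain as a covariate. Of the 32 genes, 6 were higher in females (18.8%, against 1.95% of all genes) and 0 were higher in males (2.06% of all genes) by edgeR. At an unadjusted p under 0.05, 9 of the 32 were higher in females and 2 in males, and limma-voom and DESeq2 also called 0 higher in males. The share of all genes at that unadjusted threshold is not given here, and the adjusted shares above do not apply to it. The 6 genes were Scn11a (0.83 ± 0.22, adjusted p = 0.0132), Cacng2 (0.44 ± 0.13, adjusted p = 0.031), Cacna2d3 (0.42 ± 0.10, adjusted p = 0.00436), Cacna1i (0.42 ± 0.12, adjusted p = 0.0196), Scn3b (0.21 ± 0.06, adjusted p = 0.0231) and Cacna2d2 (0.17 ± 0.05, adjusted p = 0.0294). The abundant pores were not called, with -0.01 ± 0.05 for Cacna1d (adjusted p = 0.967), 0.03 ± 0.04 for Cacna1c (adjusted p = 0.837) and 0.06 ± 0.05 for Cacna1a (adjusted p = 0.6).

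By the labels, Cacng2 was higher in females in 8 of 8 strains by the mean of normalized counts. In 129, where 6 of 10 libraries went against their sex label, the difference was only 0.01 (log2). In AJ it ran from 0.03 through 0.11 to 0.13 TPM in the 7 female libraries and from 0.01 through 0.06 to 0.12 in the 7 male libraries, which overlap. By the same labels, Scn11a and Cacna2d3 were higher in females in 7 of 8 strains. In the 9 WSB libraries labelled female Scn11a ran from 0.01 through 0.06 to 0.16 TPM and in the 7 labelled male from 0 through 0.02 to 0.04. Of these WSB libraries 4 went against their sex label. For Cacna2d3, the AJ libraries had 0.48 through 0.56 to 0.58 TPM in females and 0.22 through 0.42 to 0.56 in males.

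Markers of delta and alpha cells differed between the sexes in the same direction. All 3 delta markers were higher in females, Sst by 0.31, Rbp4 by 0.33 and Hhex by 0.22 (log2), as were 2 of 5 alpha markers, Gcg by 0.43 and Irx2 by 0.33, and 0 of 7 beta markers. With the delta or the alpha marker level as a covariate none of the 6 genes was called, nor in 129, NOD, NZO and PWK alone, nor when the libraries of each sample were summed. The differences were still upward with delta and with alpha markers, at 0.65 and 0.71 for Scn11a, 0.38 and 0.39 for Cacng2, 0.28 and 0.28 for Cacna2d3, 0.25 and 0.32 for Cacna1i, 0.13 and 0.13 for Scn3b and 0.13 and 0.13 for Cacna2d2. At an unadjusted p under 0.05, edgeR gave 9 of the 32 genes higher in females with delta markers, 8 with alpha markers, 2 in those 4 strains and 7 with summed libraries. These unadjusted counts have no share of all genes beside them. limma-voom called 2 of the 6, Cacna2d2 and Scn11a. Without NOD these 2 were not called by edgeR (0.17, adjusted p = 0.0578, and 0.73, adjusted p = 0.0558), while the other 4 were. Without the 12 libraries that went against their sex label, the 6 genes and 2 others (Cacna1e and Cacng4) were higher in females, and Cacna1f and Scn3a were higher in males.

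**Figure D5:**
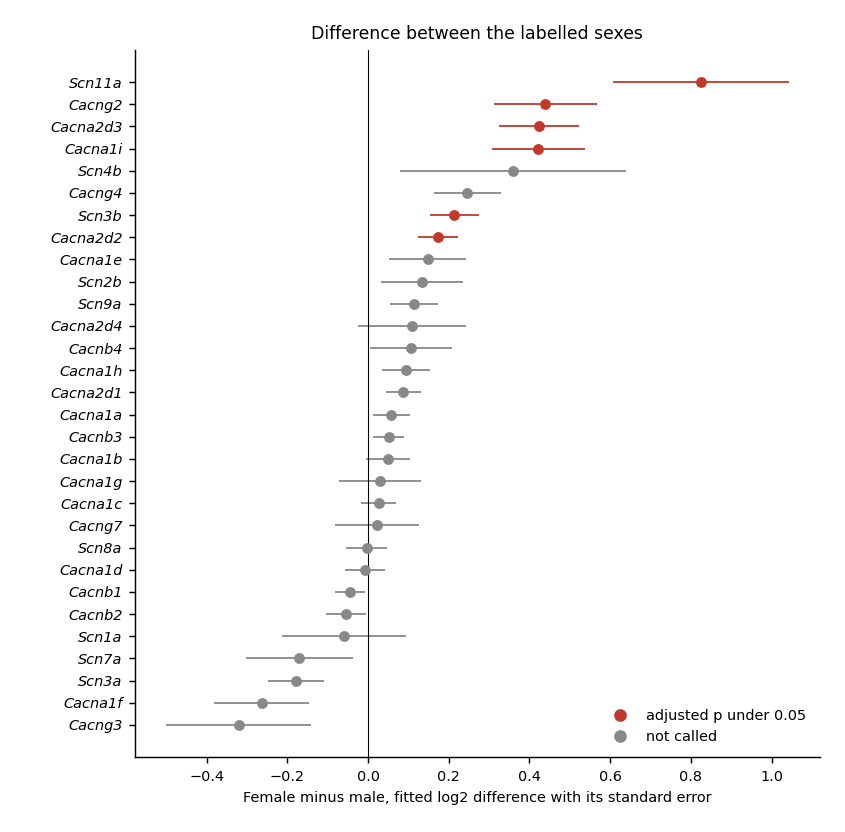
Fitted log2 difference between libraries labelled female and male for 30 of the 32 tested genes, with bars of 1 standard error and red points for an adjusted p under 0.05. The 6 red points lie between 0.17 and 0.83, and the points of Cacna1d and Scn8a lie close to 0.

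Whether the sex difference itself varied with strain was tested over 82 libraries of 6 strains, leaving out NZO and PWK, which have fewer than 5 of either sex. Scn4b and Cacna1g were called, 2 of 32 genes, against 5.9% of all genes. Without the 12 libraries that went against their sex label 5 of the 32 were called, and the share of all genes under that setting is not given here. For Scn4b (adjusted p = 0.000483) the 9 female B6 libraries ran from 0.11 through 0.27 to 0.68 TPM and the 9 male ones from 0 through 0.03 to 0.10, without overlap. In NOD the order was the other way, with 0.84, 1.54 and 2.02 TPM as the lowest, median and highest of 5 labelled female and 1.5, 2.54 and 2.71 in 5 labelled male. Of these NOD libraries 2 went against their sex label. For Cacna1g (adjusted p = 0.0458) the CAST females ran from 0.44 through 0.71 to 1.72 TPM and the CAST males from 0.14 through 0.39 to 0.80, whereas the B6 females ran from 0.31 through 0.57 to 0.85 and the B6 males from 0.45 through 0.80 to 1.39. Acinar markers went the same ways as Scn4b, with a mean log2 CPM of 13.7 in B6 females and 11.4 in B6 males, and 12.6 in NOD females and 14.03 in NOD males. Scn4b was also not called by limma-voom, and Cacna1g not without the filter on low values or with delta or alpha markers. With acinar markers as a covariate neither gene was called (5 of the 32 at an unadjusted p under 0.05), and 67 genes were called in all. The share of all genes at that unadjusted threshold is not given here.

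The tables also give a transcript length for each gene, weighted by the abundance of its isoforms. For 4 genes the mean length differed by at least 1.5-fold between strains. That of Cacna1e was 7754 ± 1840 bases in NOD (SD, n = 10) and 3151 ± 335 in CAST (n = 14), without overlap between these strains (5225 to 10655 against 2748 to 3972). Cacna2d4 was longest in CAST and shortest in WSB (3952 ± 1904 against 2146 ± 792), Cacna1g longest in NZO and shortest in 129 (6231 ± 1764 against 3493 ± 563) and Cacna2d3 longest in PWK and shortest in NZO (3365 ± 493 against 2234 ± 1094). The ranges of the last 3 overlapped between strains. Since TPM divides by this length, the log2 ratio of Cacna1e between NOD and NZO was 1.30 in TPM and 2.02 in normalized counts.

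Genes that regulate these channels were taken from a list of 26. Of these 25 were in the tables and 24 were tested, all 24 with a strain effect (97.4% of all genes) and 16 with a range of at least 2-fold (44.4%). The median fitted log2 range of the 24 was 1.34, between that of the channel genes and that of all genes. In this list 6 genes were higher (25.8% of all genes) and 10 lower (21.7%) in 1 strain than in each other strain. In wild-derived strains 9 were higher (24.9%) and 4 lower (31.3%), and 1 was higher in females (1.95%). The largest ranges were those of Stac2, an adaptor of L-type channels (3.81, NOD above NZO), Rrad and Rem1, small GTPases that lower calcium current (2.77, NOD above PWK, and 2.74, NOD above B6), and Ank2, an ankyrin that anchors channels (2.41, B6 above AJ).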

How the data were processed

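Islet RNA-seq of 91 libraries from 16 samples (8 strains, 2 sexes) was analysed. The authors prepared KAPA libraries, quantified reads with RSEM against GENCODE vM18 on mm10 and deposited, per library, expected counts, TPM and an abundance-weighted transcript length in bases (other). The RSEM version and strandedness are not given in the sources used here. The 4 sequencing waves are not tied to libraries.

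Expected counts were rounded. Genes that code for protein, on the autosomes (1 to 19) or X, entered unless in the lowest 10% by variance or at 0 in more than 15% of libraries, a filter modelled on the study's methods. The 15204 genes left differ in number from the study's own set. Counts were fitted with edgeR 4.0.16 (R 4.3.3; quasi-likelihood, upper-quartile normalization, strain and sex as terms) with Benjamini-Hochberg adjustment over all genes tested. The interaction was fitted over 82 libraries of 6 strains. Standard errors are the log2 difference divided by the square root of F. TPM is summarised as mean ± SD. Totals ranged from 16928552 to 35196145, where a count of 0 allows up to 3 counts, or 0.0852 to 0.177 CPM (counting error only). The fits were tested on simulated data.

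The members, lists and tests were chosen with earlier results of these data known. Named with values were members higher or lower in 1 strain than in each other strain, the 10 highest by mean TPM, the 6 with the largest range, those called for sex or interaction, and at least 1 per class. Members under 0.1 TPM in all strains are given by counts. Some members that these rules name are counted in the totals but not reported here. Alternatives were other normalizations, filters and tests (limma 3.58.1, DESeq2 1.42.0), subsets of libraries and marker covariates. Of the alternatives, 23 were planned and 3 (delta markers, alpha markers, and 129, NOD, NZO and PWK alone) were chosen after seeing the data. Sequences and coordinates come from GENCODE M21 on GRCm38, read with Biopython 1.88.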

Additional observations from a re-analysis of the deposited data

Results flagged for a closer look

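In 96 groups of 4 to 10 libraries, 8 had a highest or lowest library whose gap to the others passed Dixon's 95% limit in TPM, and chance gives about 1 in 20 groups. Cacna1d was 17.3 TPM in 1 PWK library against 32.1 to 36.6 in the other 4. In that library acinar markers summed to 216100 TPM, against 35770 to 77210 in the others. In 1 NZO library, the male one, Cacna1f was 1.21 TPM against 0.37 to 0.41 and Scn9a was 3.42 against 1.88 to 2.08. Cacna1f was 0.64 TPM in 1 PWK library against 0.11 to 0.24. Cacna2d4 was 1.80 TPM in 1 library of 129 against 0.56 to 1.11. Cacnb4 stood out in 3 strains, with 0.24 TPM in 1 library of 129 (others 0.09 to 0.16), 0.55 in 1 of NOD (0.05 to 0.25) and 0.66 in 1 of PWK (0.01 to 0.11). What set these libraries apart was not tested.

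The sex difference varied with strain for Scn4b (edgeR interaction, adjusted p = 0.000483) and Cacna1g (adjusted p = 0.0458). Neither passed with acinar markers as a covariate.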

How the results depend on the processing

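No paired analysis was possible because the labels give no replicate numbers shared between groups. Of the log2 differences between highest and lowest strain, 577 alternative values kept direction and side of the threshold and 1 did not pass (Cacnb4, 0.72 with delta markers). The number of genes higher in 1 strain was 14, against 7 without the 12 libraries that went against their sex label and 8 with delta markers. The number lower in 1 strain was 11, against 6 with T and B cell markers, 18 in AJ, B6, CAST and WSB alone with the number range, and 17 in 129, NOD, NZO and PWK alone. In those subsets of 4 strains a gene has to lie below 3 others in place of 7, so these counts are not of the same form. The number higher in females was 6, against 2 by limma-voom, 0 with libraries summed, 1 with delta markers (Scn4b), 0 with alpha markers and 0 in 129, NOD, NZO and PWK alone. The number higher in males was 0, against 2 without the 12 libraries and 1 each with delta or alpha markers. The number with an interaction was 2, against 1 without the filter, 1 by limma-voom, 5 without the 12 libraries, 0 with acinar markers and 1 each with delta or alpha markers. The log2 ratios of mean TPM that moved on normalized counts were those of Cacna1e (2.02), Cacna1g (1.82) and Scn1a (4.91). The causes were not tested.

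Leaving out 1 NZO or PWK library gave 12 to 14 genes higher and 10 to 12 lower in 1 strain, 14 to 15 higher and 6 lower in wild-derived strains, 6 higher in females, 0 higher in males, 32 with a strain effect and 26 to 27 with a 2-fold range. Genes with few counts, such as Scn11a and Scn1a, limit the precision of their folds.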

Other observations

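Of 25 genes that move or store calcium, 24 were tested, all 24 with a strain effect (97.4% of all genes) and 13 with a range of at least 2-fold (44.4%). The median fitted log2 range was 1.01. Of these genes 4 were higher (25.8% of all genes) and 11 lower (21.7%) in 1 strain than in each other strain. In wild-derived strains 8 were higher (24.9%) and 8 lower (31.3%), and 2 were higher in females (1.95%). Ryr3, a ryanodine receptor, ran from 0.17 through 0.755 to 7.19 TPM in NOD and from 0.02 through 0.105 to 0.34 in B6 (3.51 ± 0.23, edgeR adjusted p = 3.73e-24). Atp2b3, a plasma membrane calcium pump, was highest in PWK and lowest in NZO (3.38 ± 0.88, adjusted p = 0.00111). Ryr2 was highest in NOD and lowest in WSB (2.67 ± 0.34), and Atp2a1 highest in NOD and lowest in CAST (2.44 ± 0.36). All 4 genes had mean levels below 1 TPM. The genes higher in females were Itpr1 and Itpr3, receptors that release calcium from the endoplasmic reticulum.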
